A study of Mus musculus with 6 samples.

Results

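The Hippo pathway and its effectors YAP and TAZ were examined in cochlear organoids kept in soft or stiff gels, through 38 genes grouped by role. All 38 were found by their symbols among the 15016 genes of the deposited expression table. They comprised 19 upstream members (8 of the core kinase cassette, 6 adaptors and 5 partners that restrain YAP, TAZ or TEAD), 6 effectors (the coactivators Yap1 and Wwtr1 and the 4 TEAD factors) and 13 target genes. The organoids came from wild-type mouse cochlear progenitor cells and were measured by RNA-seq in 3 libraries from soft gels and 3 from stiff gels. Both groups had been expanded with EGF, bFGF, IGF, CHIR99021 (a GSK3 inhibitor that raises Wnt signalling), valproic acid (a histone deacetylase inhibitor), 2-phospho-L-ascorbic acid (a vitamin C derivative) and the compound 616452, over N2 and B27 supplements and antibiotics. Both were then differentiated with CHIR99021 and LY411575, which blocks Notch cleavage by gamma-secretase, and were divided between the 2 gels at that stage. Strain, age, the number of animals, the time in the gels and the stiffness of each gel are not given in the sources used here. Nor do the labels say that the libraries came from separate cultures or animals, and the p-values then reflect the spread among these 6 libraries alone, which may be technical.

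In the Hippo pathway the kinases MST1 and MST2 (genes Stk4 and Stk3), with the scaffold SAV1, activate LATS1 and LATS2, whose cofactors are MOB1A and MOB1B. LATS kinases phosphorylate YAP and TAZ, which are then held in the cytoplasm or degraded. Unphosphorylated YAP and TAZ enter the nucleus and activate genes through the DNA-binding TEAD proteins, and a firm matrix and a tensed actin skeleton are known in many cultured cells to favour this. In the developing cochlea the pathway is known for its part in limiting progenitor proliferation. Most of this control acts on proteins, and RNA levels do not report phosphorylation or localisation.

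Depth was 16108470 to 17899391 reads per library over the listed genes. Of 20 markers of cochlear epithelium and supporting cells 17 were tested (those with a mean of at least 1 FPKM, fragments per kilobase of transcript scaled to library size, in either gel), and stiff gels had 8 of them higher and 0 lower by limma. Over all tested genes 3.13% were called higher and 2.68% lower, by the rule given below. The summed level of all 20 markers was 1424 to 1537 FPKM in soft and 1621 to 1837 FPKM in stiff libraries. Sox2 was at 1.47 and 5.03 FPKM on average in soft and stiff gels, and the means of Pax2, Prox1 and Fgfr3 were under 1 FPKM in both. Of 12 mesenchyme markers 9 were tested and 0 called (limma), with sums of 616 to 744 and 770 to 792 FPKM. In that list Lum (326 and 411 FPKM on average in soft and stiff gels) and Dcn (125 and 181) were the most abundant, Col3a1 was at 72.7 and 35.1 FPKM, and Col1a1 and Col1a2 were under 1 FPKM in both. Of the markers tested in the other lists, 1 of 5 for hair cells and 3 of 6 for glia were higher, 1 of 4 for endothelium was lower, and 0 of 2 for neurons and 0 of 1 for macrophages were called. In these bulk samples fewer cells of a type and less RNA per cell cannot be told apart, and the part of cell composition in the values below was not tested. Soft replicate 1 was as close to the stiff libraries (Pearson r across genes 0.990 to 0.992) as to soft replicates 2 and 3 (0.992 and 0.991), which had 0.996 between them. Members whose call changed when it was left out are given with and without it.

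In stiff gels 5 of the 38 members fell and 0 rose. Those that fell were the target Ankrd1, the YAP-binding proteins Amotl2 and Ptpn14, the adaptor Wwc2 and the factor Tead1. A call is a Benjamini-Hochberg adjusted p under 0.05 over the 11780 tested genes, from limma on log2(FPKM + 1), and log2 fold changes are stiff minus soft on that scale, which understates the change of low genes. The members called lower were 13.2%, against a background of 2.68% of tested genes called lower and 3.13% called higher (5.81% in either direction). The members were chosen with earlier results of these data known, so this and the shares below describe them and give no independent support. Leaving out 1 library moved the count of members called lower from 5 to between 1 (without soft replicate 2) and 13 (without soft replicate 1). The background was 6.42% without soft replicate 1, and over all tested genes the calls were also fewest without soft replicate 2. Without the filter on low values 3 members were called lower. At an unadjusted p under 0.05 there were 17 members lower and 1 higher, where the background was 9.04% and 12.7%. The 3 libraries of each gel did not overlap in 17 members in the lower direction and in 1 in the higher direction (background 10.4% and 15.5%). The median log2 fold change was -0.18 over the members and 0.03 over all tested genes, of which 41.2% were below 0 against 28 of 38 members. The authors' deposited table has 11 of the members lower and 1 higher at q under 0.05, where its shares of the same tested genes were 5.37% and 4.09%. By role, the median log2 fold changes of the fit here were -0.08 for the 19 upstream members, -0.20 for the 6 effectors and -0.30 for the 13 targets.

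**Figure D1:**
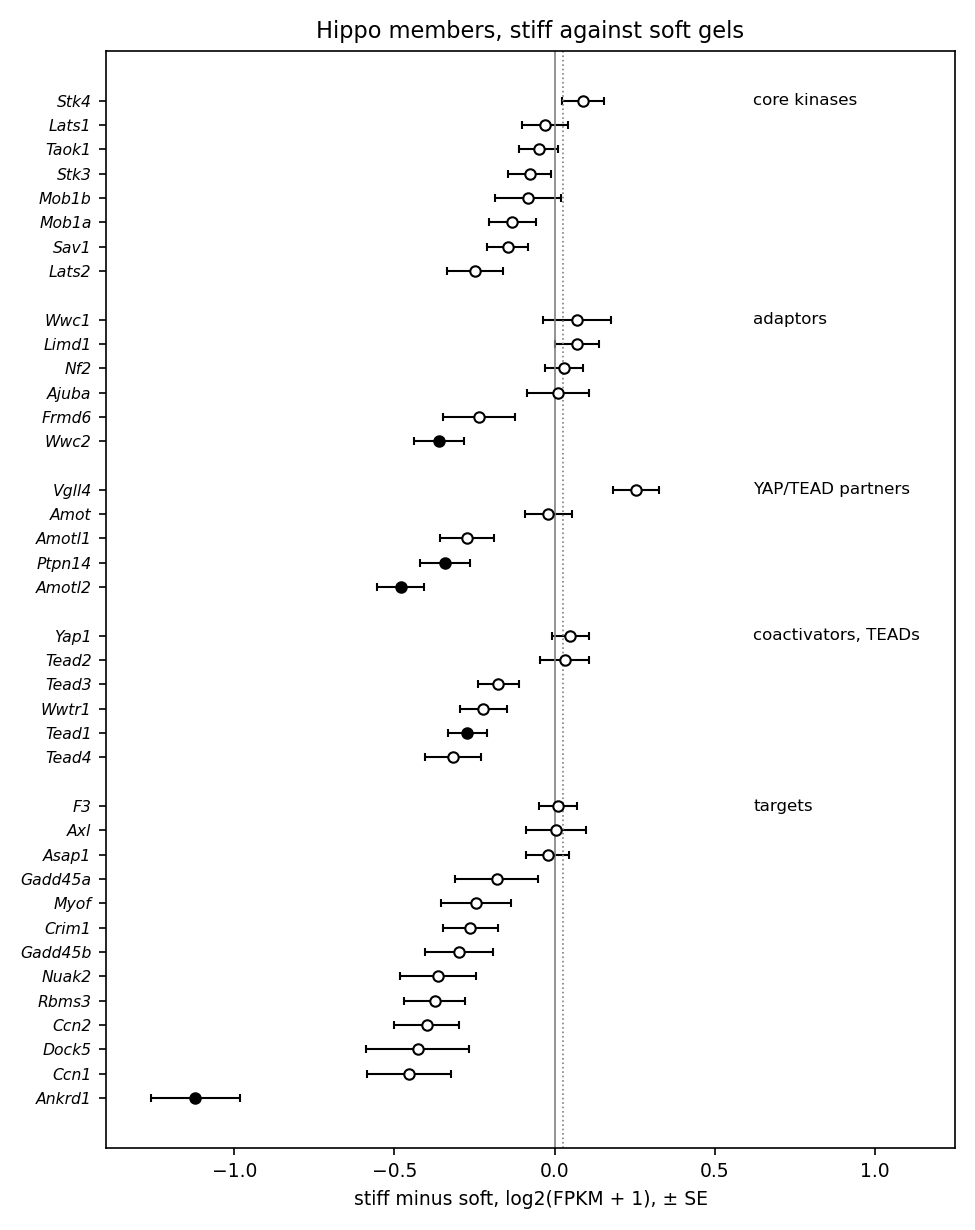
Log2 fold change of each member, as stiff minus soft in log2(FPKM + 1) (x axis), with bars for the SE of the limma fit on 3 libraries per gel, grouped by role. Filled points mark the 5 members with an adjusted p under 0.05, the dotted line is the median of all tested genes (0.03), and Ankrd1 lies furthest to the left at -1.12.

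The sequence that TEAD factors bind has the core GGAATG, or CATTCC on the other strand. RefSeq promoters (build GRCm38.p6, the mm10 assembly) were matched by gene ID for 30 of the 38 members, with 36 start sites in all, and those of Ccn2, Dock5, Limd1, Nuak2, Stk3, Tead4, Asap1 and Tead1 were not analysed. In the 250 bases before the start, either strand of the core was found in 16 of the 36 member promoters (44.4%), in 12.6% of all 32851 promoters in the reference and in 10.6% of the 12093 promoters of tested genes. Among the 9 targets with a promoter, 4 genes had a match (Ankrd1, Ccn1, Crim1 and Axl), and among the 17 upstream members 7 had one (Amotl2, Ptpn14, Wwc2, Ajuba, Mob1a, Sav1 and Vgll4). The 4 members that fell and had a promoter in the reference all had a match. Counted by gene, a match was found in 14 of the 30 members (46.7%) and in 12.6% of tested genes with a promoter. Ajuba and Axl, whose log2 fold changes were both 0.01, also had a match, and so had Vgll4, which was higher in every stiff library. The AP-1 site TGANTCA, searched as a factor that often binds beside TEAD, was in 1 member promoter (2.78%; 6.75% of all promoters), that of F3. A match says only that these letters occur. The members were chosen as pathway and target genes with earlier results of these data known, so their shares of matches give no independent support. The sites of the members that fell, and of Ccn1 as a classical target, are shown here 5′ to 3′ on the strand of the gene, with the core in capitals and 12 bases on either side:

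Ankrd1, chr19:36120037-36120066: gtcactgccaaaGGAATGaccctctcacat

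Ankrd1, chr19:36119950-36119979: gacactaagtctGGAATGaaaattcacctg

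Ccn1, chr3:145650071-145650100: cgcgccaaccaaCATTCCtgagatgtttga

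Amotl2, chr9:102717727-102717756: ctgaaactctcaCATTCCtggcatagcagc

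Ptpn14, chr1:189728110-189728139: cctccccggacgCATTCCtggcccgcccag

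Wwc2, chr8:47990730-47990759: gagcgagctgtgCATTCCtccgccctaccg

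Wwc2, chr8:47990621-47990650: gggttaagctcaGGAATGtggcggcgagga

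Wwc2, chr8:47990606-47990635: atgtggcggcgaGGAATGtgcatgcagatg

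The core of the site began 210 and 123 bases before the RefSeq start of Ankrd1, 103 before that of Ccn1 and 65 before that of Amotl2. It began 146 bases before the RefSeq start of Ptpn14, and 203, 94 and 79 before that of Wwc2. The GENCODE spans of Ankrd1, Amotl2 and Wwc2 begin further upstream, so the sites of these genes lie inside those spans. All but the second Ankrd1 site carried 1 more base, T after CATTCC or A before GGAATG, a form chosen after the sites were seen; it was in 11 of the 36 member promoters (30.6%) and in 4.51% of all promoters. Yap1 and Wwtr1 had this longer form in their own promoters. The whole window before the start is shown for Ptpn14, as an upstream member that fell, from chr1:189728018-189728267 on the plus strand:

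Ptpn14: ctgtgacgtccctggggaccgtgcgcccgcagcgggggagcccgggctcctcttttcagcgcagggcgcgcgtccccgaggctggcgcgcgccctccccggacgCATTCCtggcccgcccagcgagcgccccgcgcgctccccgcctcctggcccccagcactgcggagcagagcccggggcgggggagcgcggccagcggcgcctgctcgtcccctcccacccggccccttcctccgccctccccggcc

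The window of Ccn1, from chr3:145649986-145650235 on the minus strand, is shown beside it as the promoter of a classical target:

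Ccn1: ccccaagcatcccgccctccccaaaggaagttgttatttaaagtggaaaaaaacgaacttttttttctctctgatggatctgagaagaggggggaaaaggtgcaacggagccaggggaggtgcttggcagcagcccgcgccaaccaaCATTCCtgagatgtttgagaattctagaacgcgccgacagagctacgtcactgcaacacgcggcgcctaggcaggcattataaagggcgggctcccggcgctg

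In the core kinase cassette 0 of 8 members were called by limma, where the background was 5.81% in either direction (1 of 8 lower at an unadjusted p under 0.05, background 9.04%). In 3 of the 8, Stk3, Sav1 and Lats2, every stiff library was below every soft one (37.5%; background 10.4%), and 7 of the 8 had a log2 fold change below 0. Log2 fold changes ran from -0.25 for Lats2 to 0.09 for Stk4. Lats1, the more abundant of the LATS kinases that phosphorylate YAP and TAZ (chromosome 10, 7681214 to 7716460), was at 20.5, 18.8 and 19.0 FPKM in soft replicates 1 to 3 and at 20.5, 18.8 and 17.8 FPKM in stiff replicates 1 to 3. Its groups overlapped, with stiff replicate 3 the lowest library (log2 fold change -0.03 ± 0.07 SE, limma adjusted p = 0.866). Lats2, its paralog and a known transcriptional target of YAP (chromosome 14, 57689662 to 57758388), was at 4.21, 4.11 and 4.41 FPKM in soft and at 3.67, 3.65 and 2.97 FPKM in stiff gels. Every stiff library was below every soft library for Lats2, yet it was not called (log2 fold change -0.25 ± 0.09 SE, limma adjusted p = 0.137). It shares 2955 exon bases with the gene model Gm49361 on the same strand, and the counting could have split their reads. The ratio of Lats1 to Lats2 FPKM was 4.88, 4.58 and 4.30 in soft and 5.58, 5.16 and 6.004 in stiff libraries. An exact two-sided permutation test gave p = 0.1 for this ratio, the smallest that 3 against 3 libraries allow (0.175 adjusted over the 7 ratios, shares and sums tested in this way).

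The other core members had means of 4.94 to 31.8 FPKM. Stk3 and Stk4, which encode the kinases that start the cascade, went from 5.27 ± 0.0801 to 4.94 ± 0.117 and from 11.5 ± 0.346 to 12.3 ± 0.626 FPKM (SD, n = 3), so the signs differed between the paralogs (log2 fold changes -0.08 and 0.09). Sav1, the scaffold, was at 31.8 ± 0.965 and 28.6 ± 1.79 FPKM with groups that did not overlap (log2 fold change -0.15, limma adjusted p = 0.234). Its exons share 1336 bases with those of Atl1 on the opposite strand (4.53 FPKM), and the library kit does not mark strand, so reads of the pair cannot be told apart there. Mob1a and Mob1b encode nearly identical LATS cofactors whose reads the counting could split between them; they had log2 fold changes of -0.13 and -0.08. Taok1, a kinase that activates MST kinases, had -0.05.

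Among the adaptors, which carry the signal from junctions and cortex to the kinases, Wwc2 was the 1 member of 6 that fell (0 rose; limma; background 2.68% lower and 3.13% higher). Wwc2, a relative of the KIBRA protein that promotes LATS activation (chromosome 8, 47823959 to 47990924), was at 12.6, 13.8 and 13.9 FPKM in soft and at 11.3, 10.0 and 9.49 FPKM in stiff gels. The groups did not overlap, and soft replicate 1 was the soft library nearest to the stiff ones (log2 fold change -0.36 ± 0.08 SE, limma adjusted p = 0.0334). The gene shares 995 exon bases with Cldn22 on the opposite strand, which was at 0.155 FPKM. Leaving out any 1 of the other 5 libraries ended its call (limma adjusted p from 0.0533 to 0.125) and without the filter on low values (0.055). Wwc1, the gene of KIBRA itself, was at 41.4, 33.4 and 30.7 FPKM in soft and at 40.02, 34.3 and 35.9 FPKM in stiff gels, so the paralogs differed in the sign of their means (0.07 for Wwc1, limma adjusted p = 0.778). That sign turned to -0.02 without soft replicate 3.

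Nf2, which encodes merlin, the tumour suppressor that recruits LATS to the membrane, was at 21.8, 20.9 and 22.4 FPKM in soft and at 22.9, 21.9 and 21.7 FPKM in stiff gels, which overlapped (log2 fold change 0.03 ± 0.06 SE, limma adjusted p = 0.846). Limd1 and Ajuba encode LIM proteins that bind and hold LATS at junctions under tension. Limd1 was at 12.7 ± 0.396 and 13.4 ± 0.885 FPKM, and Ajuba at 10.6 in both gels with a spread of 1.59 in soft and 0.472 in stiff libraries. Frmd6, the mammalian relative of the fly protein Expanded, was at 9.05 ± 0.72 and 7.58 ± 1.37 FPKM with groups that overlapped (log2 fold change -0.24, limma adjusted p = 0.268).

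Of the 5 partners that bind YAP, TAZ or TEAD and restrain them, 2 fell (limma; background 2.68%), and 1, Vgll4, was higher in every stiff than in every soft library (background 15.5%). Amotl2, an angiomotin that binds YAP at junctions and is itself a well-known YAP target (chromosome 9, 102716672 to 102733418), was at 5.85, 6.11 and 6.02 FPKM in soft and at 4.25, 3.73 and 4.08 FPKM in stiff gels. Its soft libraries lay within a narrow range, and the stiff values were 33.0% lower on average, so that it fell by 0.48 ± 0.07 (SE) on the log2 scale (limma adjusted p = 0.0106). The comparison was made in 13 fits, which were the one of all 6 libraries, 5 with another setting, 6 without 1 library and the authors' own. The call of Amotl2 held in 12 of them and was lost without soft replicate 2 (limma adjusted p = 0.0586). Ptpn14, a phosphatase that binds YAP and is also a known YAP target (chromosome 1, 189728268 to 189876695), was at 5.89, 5.96 and 5.56 FPKM in soft and at 4.81, 4.29 and 4.02 FPKM in stiff gels. The groups did not overlap (log2 fold change -0.34 ± 0.08 SE, limma adjusted p = 0.041). Without any single library other than soft replicate 1 the call of Ptpn14 was lost (limma adjusted p from 0.0671 to 0.147), and also without the filter (0.0685).

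The other angiomotins differed from Amotl2 in size of change. Amotl1 was at 14.0, 16.2 and 16.1 FPKM in soft and at 13.6, 12.8 and 11.4 FPKM in stiff gels (chromosome 9, 14541966 to 14645056). Soft replicate 1 sat just above the highest stiff library, and Amotl1 was not called (log2 fold change -0.27 ± 0.08 SE, limma adjusted p = 0.0948), except without soft replicate 1 (0.0268). The authors' deposited table has Amotl1 lower (q = 0.0171). Amot was at 8.94 ± 0.69 and 8.80 ± 0.351 FPKM (log2 fold change -0.02). Vgll4, which competes with YAP for TEAD (chromosome 6, 114860628 to 114969994), was at 7.38, 6.48 and 6.72 FPKM in soft and at 8.73, 8.10 and 8.27 FPKM in stiff gels. It was the 1 member with groups apart in the higher direction, and was not called (log2 fold change 0.25 ± 0.07 SE, limma adjusted p = 0.0755). Vgll4 was called higher without soft replicate 1 (limma adjusted p = 0.0285) and by limma-voom on rebuilt reads (adjusted p = 0.0325). In the authors' deposited table it is higher too (q = 0.0335).

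**Figure D2:**
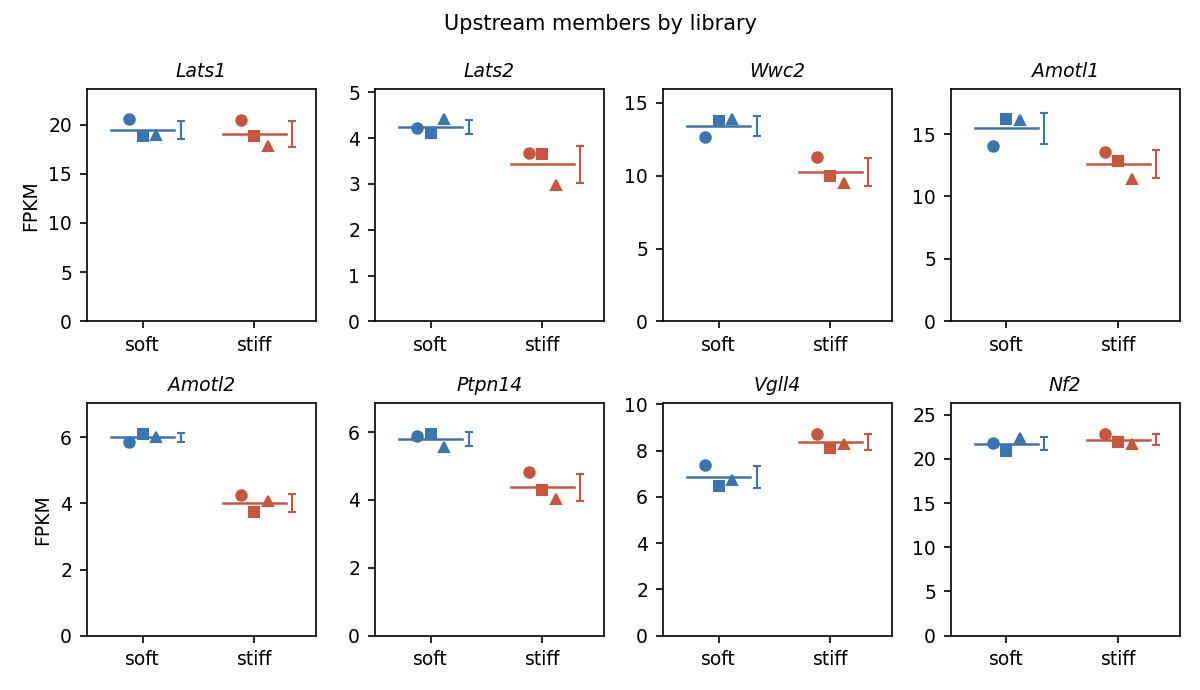
FPKM of 8 upstream members in each library (y axis), soft gels in blue and stiff gels in red. Circles, squares and triangles are replicates 1, 2 and 3, horizontal lines are group means and error bars the SD (n = 3); Amotl2 has the clearest gap between the groups, whereas Lats1 and Nf2 overlap.

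Of the 2 coactivators, Yap1 was the more abundant per length, and 0 were called (limma; background 5.81% in either direction). Wwtr1 was lower at an unadjusted p under 0.05 (background 9.04%). Yap1 (chromosome 9, 7931999 to 8004596) was at 48.0, 46.9 and 45.4 FPKM in soft and at 47.2, 47.9 and 50.2 FPKM in stiff gels, with overlapping groups (log2 fold change 0.05 ± 0.06 SE, limma adjusted p = 0.697). Wwtr1, the TAZ gene (chromosome 3, 57455649 to 57575910), was at 31.1, 32.9 and 36.8 FPKM in soft and at 29.1, 29.2 and 27.5 FPKM in stiff gels. All stiff libraries were below all soft libraries for Wwtr1 (log2 fold change -0.22 ± 0.07 SE, limma adjusted p = 0.113). It was called lower only without soft replicate 1 (0.0369). In the authors' deposited table its q was 0.0502. The ratio of Yap1 to Wwtr1 FPKM was 1.54, 1.43 and 1.23 in soft and 1.62, 1.64 and 1.83 in stiff libraries, with no overlap (exact permutation p = 0.1, adjusted 0.175).

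The TEAD factors, through which both coactivators reach DNA, kept the same order of levels in every library: Tead2, Tead1, Tead3 and Tead4, and the libraries' ranges of neighbours in that order did not overlap. Tead2, known as the TEAD of early embryos and neural progenitors, was at 141, 118 and 122 FPKM in soft and at 128, 127 and 134 FPKM in stiff gels (log2 fold change 0.03 ± 0.08 SE, limma adjusted p = 0.870). Tead1 (chromosome 7, 112679318 to 112906807) was at 22.0, 22.8 and 22.7 FPKM in soft and at 19.6, 18.0 and 17.8 FPKM in stiff gels. Its stiff mean was 17.9% lower, and it fell by 0.27 ± 0.06 (SE) on the log2 scale (limma adjusted p = 0.0393). The call of Tead1 was lost without any single library other than soft replicate 1 (limma adjusted p from 0.0684 to 0.142). Tead3 was at 14.7, 15.4 and 15.9 FPKM in soft and at 14.1, 13.4 and 12.9 FPKM in stiff gels (log2 fold change -0.18 ± 0.06 SE, limma adjusted p = 0.152). Tead4, the least abundant, was at 2.25, 2.62 and 2.74 FPKM in soft and at 1.91, 1.85 and 1.74 FPKM in stiff gels (-0.32 ± 0.09 SE, limma adjusted p = 0.0712). For Tead3 and Tead4 the groups did not overlap either, and Tead4 was called lower without soft replicate 1 (0.0267).

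Because Tead2 made up most of the TEAD RNA, the summed TEAD level overlapped between the gels. It was 180, 159 and 164 FPKM in soft and 163, 161 and 167 FPKM in stiff libraries (exact permutation p = 0.8). The share of Tead1 in that sum was 12.2%, 14.3% and 13.8% in soft and 12.003%, 11.2% and 10.7% in stiff libraries (exact permutation p = 0.1, adjusted 0.175 over the 7 quantities). The share of Tead2 was 78.4%, 74.4% and 74.8% in soft and 78.2%, 79.3% and 80.5% in stiff libraries. Here soft replicate 1 lay among the stiff libraries (exact permutation p = 0.2).

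**Figure D3:**
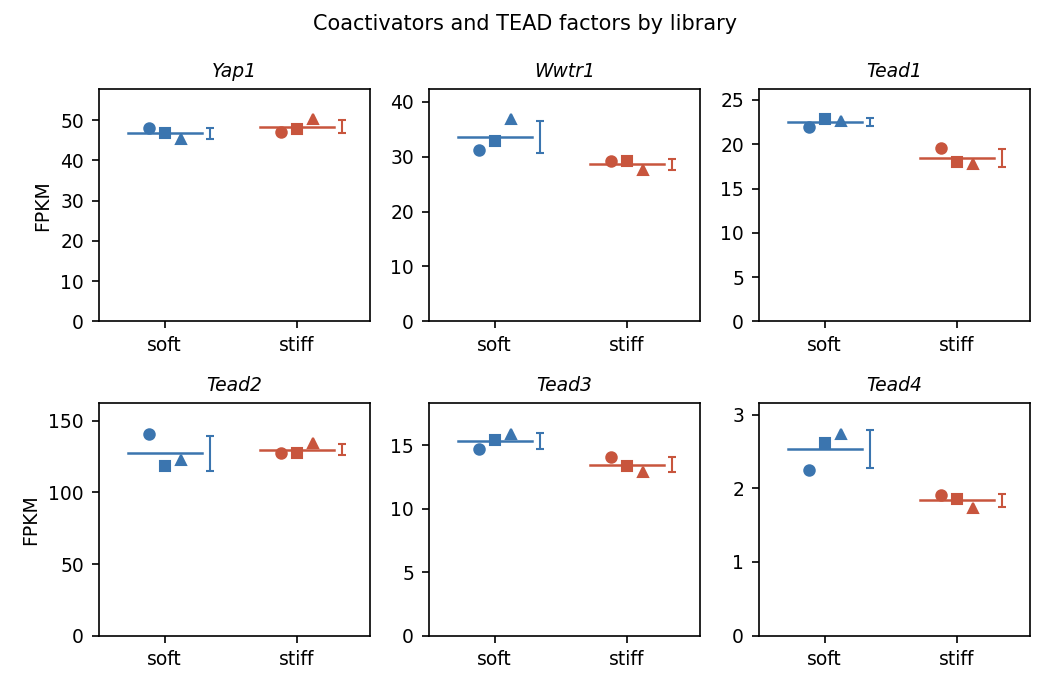
FPKM of Yap1, Wwtr1 and the 4 TEAD genes in each library (y axis, each panel from 0), soft gels in blue and stiff gels in red, with replicates 1, 2 and 3 as circles, squares and triangles, lines for means and error bars for the SD (n = 3). Yap1 and Tead2 overlap between gels, and Wwtr1, Tead1, Tead3 and Tead4 are lower in every stiff library.

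Among the 13 targets 1 fell and 0 rose (limma), that is 7.69% against the background of 2.68% called lower. At an unadjusted p under 0.05 (limma), 8 were lower and 0 higher (background 9.04% and 12.7%). In 6 of the 13 every stiff library was below every soft one (46.2%; background 10.4%), and 11 of 13 had a log2 fold change below 0. The authors' deposited table has 6 of them lower (Ankrd1, Ccn1, Ccn2, Crim1, Rbms3 and Dock5) and 0 higher, from the same libraries. The target list was drawn up with results of these data known, so these shares describe it and give no independent support. Among the soft libraries, replicate 1 was lowest for 9 of the 13 targets and replicate 3 was highest for 9. Stiff replicate 3 was the lowest stiff library for 8. The mean deviation of the 13 targets from their mean over all libraries was 0.04, 0.18 and 0.25 on the log2 scale in soft replicates 1 to 3 and -0.11, -0.12 and -0.25 in stiff replicates 1 to 3. Thus soft replicate 1 was the soft library closest to the stiff group. Without it, 6 targets were called lower and 0 higher, against a background that rose to 6.42% lower and 7.29% higher.

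Ankrd1 had the largest change of all members. It encodes an ankyrin repeat protein of muscle nuclei and sarcomeres and is a standard YAP reporter gene (chromosome 19, 36111961 to 36120099). It was at 3.11, 3.17 and 3.35 FPKM in soft and at 0.731, 1.45 and 0.703 FPKM in stiff gels. The soft values were within a narrow range, and stiff replicate 2 was the highest stiff library and still below all soft ones. The mean went from 3.21 ± 0.13 to 0.962 ± 0.424 FPKM (SD, n = 3), 3.34-fold higher in soft gels, and Ankrd1 fell by 1.12 ± 0.14 (SE) on the log2 scale (limma adjusted p = 0.00749). It rested on 20 to 106 reads per library. The call held in all 13 fits, with adjusted p up to 0.0443 without soft replicate 2. The authors' deposited table gives a log2 fold change of -1.76 (q = 5.61e-07).

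Ccn1 and Ccn2 encode the secreted matricellular proteins CYR61 and CTGF, the most used readouts of YAP activity. Ccn1 (chromosome 3, 145646976 to 145649981) was at 48.7, 58.2 and 65.9 FPKM in soft and at 48.0, 42.6 and 34.8 FPKM in stiff gels. Soft replicate 1 and stiff replicate 1 were almost level, so the groups were apart by a narrow margin, and soft replicate 3 was the highest and stiff replicate 3 the lowest library. The difference was not called (log2 fold change -0.45 ± 0.13 SE, limma adjusted p = 0.0822), except without soft replicate 1 (0.0148). Ccn2 (chromosome 10, 24595442 to 24598683) was at 25.4, 29.6 and 27.2 FPKM in soft and at 18.6, 24.1 and 19.2 FPKM in stiff gels. Its groups were apart by a small margin, set by stiff replicate 2, and the adjusted p lay just over the threshold (log2 fold change -0.40 ± 0.10 SE, limma adjusted p = 0.054). It was called lower without soft replicate 1 (limma adjusted p = 0.0235), without stiff replicate 2 (0.0281) and by limma-voom (0.0352). The Ccn2 locus shares 636 exon bases with the transcript Gm15270 on the opposite strand, which was not analysed.

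Rbms3, an RNA-binding protein gene (chromosome 9, 116572746 to 117629913), was at 12.2, 14.4 and 15.0 FPKM in soft and at 9.58, 11.6 and 10.3 FPKM in stiff gels. As with Ccn2, the groups were apart and the adjusted p was close to the threshold (log2 fold change -0.37 ± 0.09 SE, limma adjusted p = 0.0527). It was called lower without soft replicate 1 (0.00837) and by limma-voom (0.0284). Dock5, an activator of the GTPase Rac (chromosome 14, 67752135 to 67933442), was at 1.68, 2.89 and 3.05 FPKM in soft and at 1.80, 1.74 and 1.26 FPKM in stiff gels. Here soft replicate 1 lay within the stiff range (log2 fold change -0.43 ± 0.16 SE, limma adjusted p = 0.162). Dock5 was called lower without it (0.00866). Crim1, a membrane protein that binds BMPs (chromosome 17, 78200248 to 78376592), was at 6.20, 6.68 and 7.23 FPKM in soft and at 5.99, 5.04 and 5.25 FPKM in stiff gels. Its groups did not overlap, and it was not called in any of the limma fits (log2 fold change -0.26 ± 0.08 SE, adjusted p from 0.052 to 0.339 over the fits). Its exons share 123 bases with Fez2 on the opposite strand (6.45 FPKM).

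The remaining 7 targets were not called in the fit of all 6 libraries. Nuak2, a kinase of the AMPK family, was at 2.12, 2.07 and 2.51 FPKM in soft and at 1.26, 1.36 and 1.96 FPKM in stiff gels, with groups apart (log2 fold change -0.36 ± 0.12 SE, limma adjusted p = 0.113). Gadd45a and Gadd45b, stress-induced growth arrest genes, had log2 fold changes of -0.18 and -0.30 with overlapping groups. Gadd45a varied most in soft gels, with 9.81 FPKM in soft replicate 1 against 13.5 and 14.4 FPKM, and was called lower without that library (limma adjusted p = 0.0378). Myof, a membrane repair protein gene, was at 8.81 ± 0.795 and 7.31 ± 1.22 FPKM (log2 fold change -0.25). The receptor kinase gene Axl, the coagulation factor receptor gene F3 and Asap1, a regulator of the GTPase Arf, were level. Axl was at 10.5 ± 0.82 and 10.6 ± 1.28 FPKM, F3 at 29.4 ± 0.309 and 29.6 ± 1.33 FPKM and Asap1 at 15.3 ± 0.897 and 15.1 ± 0.643 FPKM (SD, n = 3; log2 fold changes 0.01, 0.01 and -0.02). The targets differed among themselves: those with the lowest log2 fold changes were Ankrd1, Ccn1, Dock5 and Ccn2, while F3, Axl and Asap1 had values within 0.03 of 0.

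**Figure D4:**
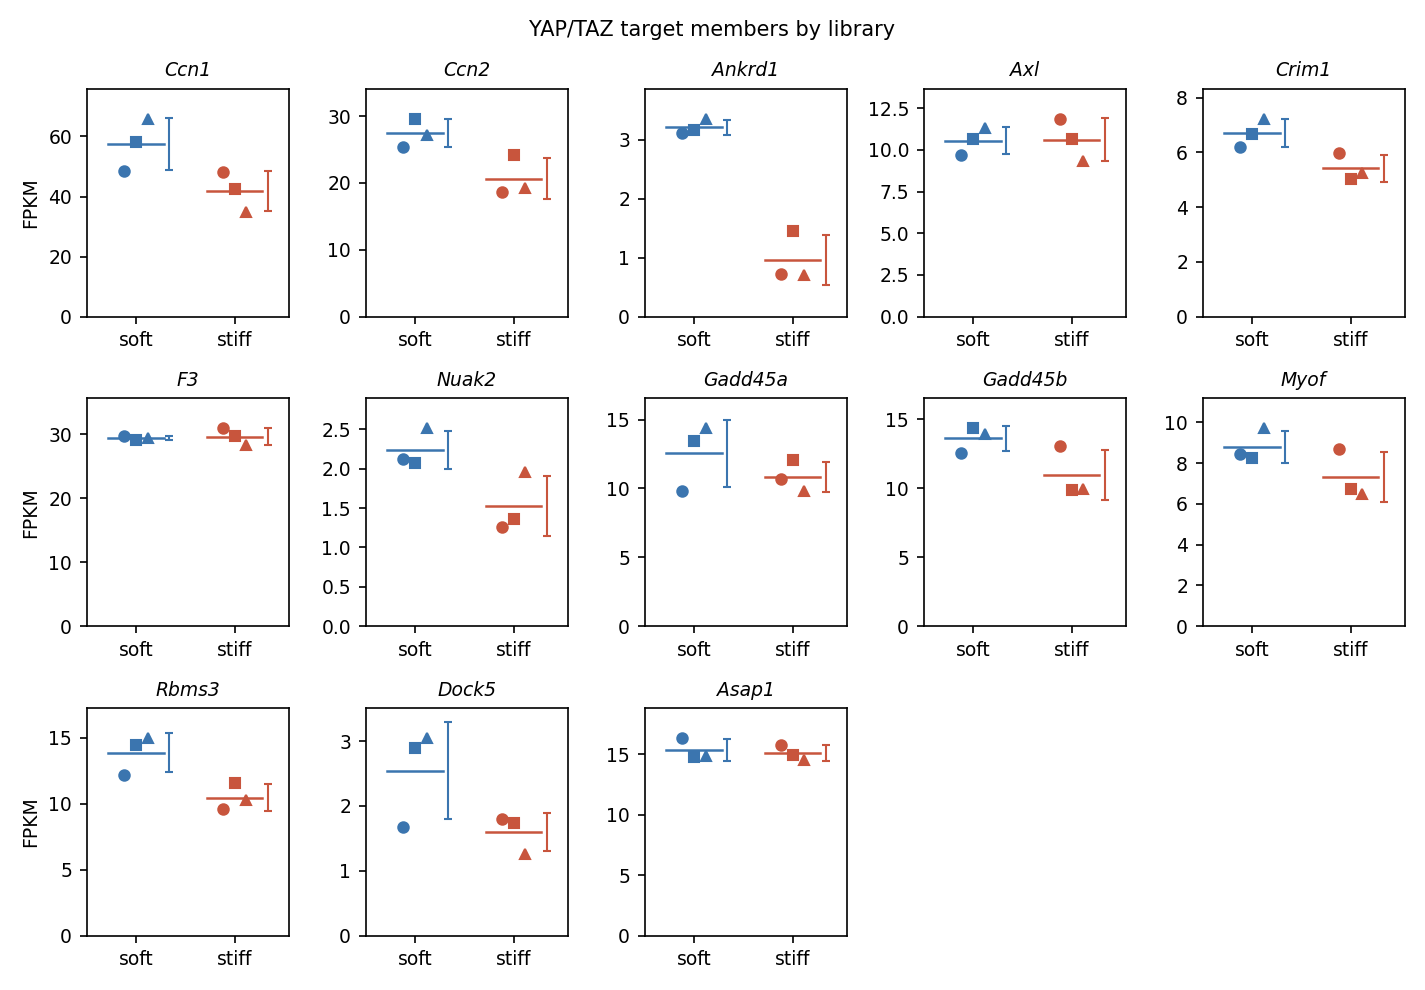
FPKM of the 13 targets in each library (y axis, each panel from 0), soft gels in blue and stiff gels in red, with replicates 1, 2 and 3 as circles, squares and triangles, lines for means and error bars for the SD (n = 3). Ankrd1 is below 1.5 FPKM in the stiff and above 3 FPKM in the soft libraries, and for Dock5 the soft circle, replicate 1, lies among the stiff points.

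Genes of the pathway outside the 38 were taken from lists set out by role, with earlier results of these data known. Of 45 further upstream genes (MAP4K and TAO kinases, the cadherins Fat1, Fat4 and Dchs1, polarity proteins and the phosphatase complex that opposes MST kinases), 43 were tested and 0 were called (limma; background 5.81% in either direction). At an unadjusted p under 0.05 there were 5 higher and 1 lower (background 12.7% and 9.04%). Their median log2 fold change was 0.06, and 28 of the 43 were above 0, as were 58.8% of all tested genes. Fat4, a protocadherin, was higher and Map4k4, a kinase that acts on LATS, was lower in the authors' deposited table, and no other gene of the list passed there. Fat4 was under the filter, at 0.440, 0.419 and 0.386 FPKM in soft and at 0.675, 0.627 and 0.688 FPKM in stiff gels. Of 17 further partners and transcription factors 12 were tested, 1 fell and 0 rose (limma; background 2.68% and 3.13%), and 3 were lower and 0 higher at an unadjusted p under 0.05 (background 9.04% and 12.7%). The one that fell was Runx1, a DNA-binding protein that can pair with YAP and TAZ, at 12.1, 12.9 and 12.8 FPKM in soft and at 6.77, 7.43 and 6.57 FPKM in stiff gels. The gap between the groups was large beside the spread within them (log2 fold change -0.78 ± 0.07 SE, limma adjusted p = 0.0029). The call of Runx1 held whichever library was left out (highest limma adjusted p 0.0336). In the authors' deposited table Runx2, Vgll3 and Smad3 are lower as well, the first 2 of them under the filter.

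Of 29 further reported targets 25 were tested, of which 4 fell and 1 rose, with a median log2 fold change of -0.08. That is 16.0% lower, against a background of 2.68% lower and 3.13% higher. At an unadjusted p under 0.05 (limma), 9 were lower and 3 higher (background 9.04% and 12.7%). The authors' deposited table has 8 of the list lower and 2 higher at q under 0.05, where its shares of all tested genes were 5.37% and 4.09%. This list too was drawn up with earlier results of these data known, so its shares give no independent support. Igfbp3, which binds insulin-like growth factors, was at 7.59, 16.2 and 16.2 FPKM in soft and at 4.52, 4.85 and 3.57 FPKM in stiff gels (log2 fold change -1.37 ± 0.24 SE, limma adjusted p = 0.0169). Tgm2, a transglutaminase that cross-links matrix proteins, was at 39.3, 55.5 and 66.6 FPKM in soft and at 26.2, 26.1 and 19.3 FPKM in stiff gels (-1.12 ± 0.18 SE, limma adjusted p = 0.0132). Soft replicate 1 was the lowest soft library of both genes. Col8a1, a short-chain collagen gene, went from 20.3 to 10.3 FPKM on average and Myc from 18.1 to 14.7 FPKM, and they fell by 0.89 and 0.28 on the log2 scale (limma adjusted p = 0.0401 and 0.0323). Cdc42ep3, an effector of the GTPase Cdc42, was at 9.55, 8.02 and 9.03 FPKM in soft and at 11.0, 11.98 and 12.1 FPKM in stiff gels. It rose by 0.37 ± 0.08 (SE) on the log2 scale (limma adjusted p = 0.0323). Each of these 5 lost its call in at least 3 of the 6 fits without 1 library, with limma adjusted p up to 0.149. The annotation in the deposited table puts 143 genes in the Hippo signaling pathway, of which 125 were tested. There 4 were higher and 7 lower (5.60% lower, against a background of 2.68% lower and 3.13% higher). The median log2 fold change was 0.02, and for the 106 tested genes left after removing the members it was 0.05.

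Across the 13 fits, 14 of the 38 members were called lower at least 1 time and 1 was called higher, and of all tested genes 7.3% were called lower and 7.89% higher at least 1 time (15.2% in either direction). The fits share the same 6 libraries, so counts over them show how a call depends on the settings and are not repeated evidence. Ankrd1 was called in 13, Amotl2 in 12, Tead1 in 7, Wwc2 and Ptpn14 in 6, Ccn2 in 5 and Rbms3 in 4. All of these calls were lower in stiff gels, and Vgll4, called in 3 fits, was the 1 member called higher in any. The fit without soft replicate 1 gave 13 members lower and 1 higher (background 6.42% and 7.29%). Each of the other 5 fits without 1 library gave 1 (without soft replicate 2) to 3 lower and 0 higher. Over all tested genes, too, the fewest calls came without soft replicate 2.

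**Figure D5:**
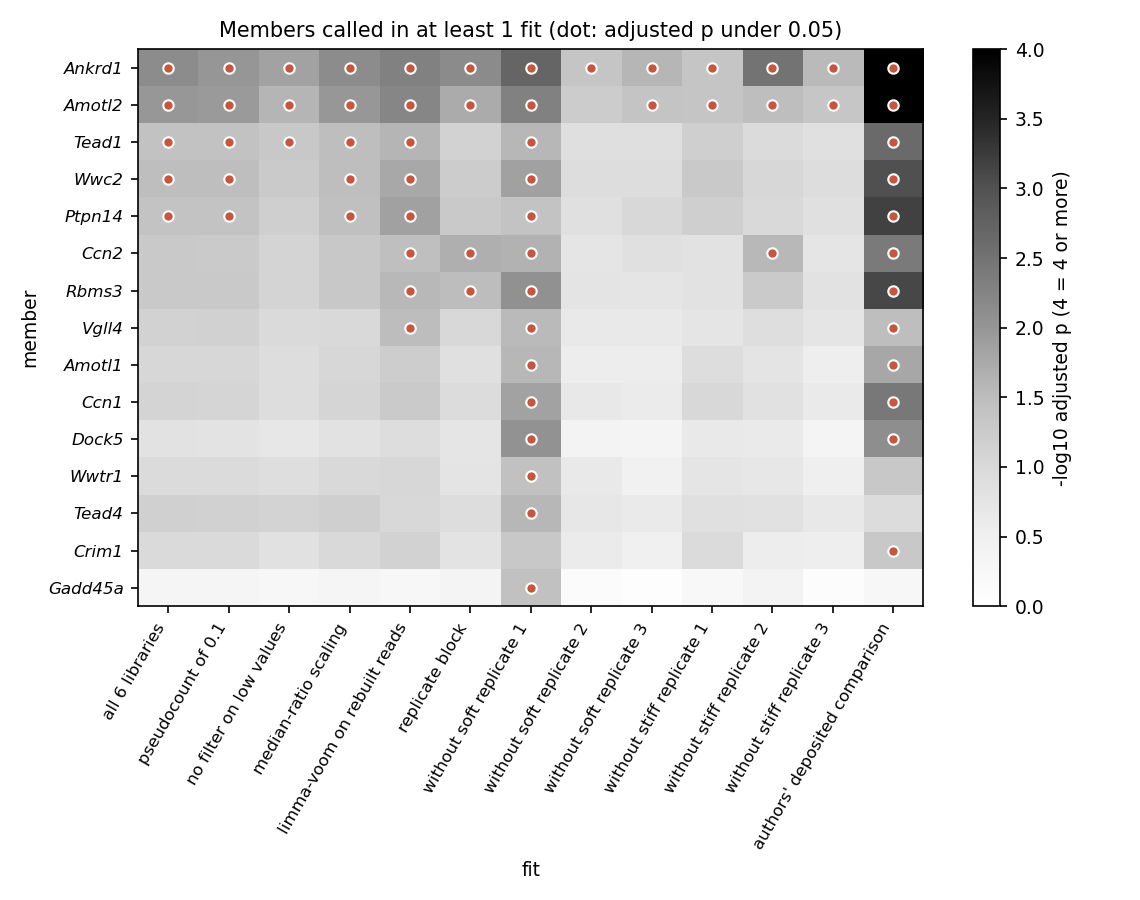
Adjusted p of the 15 members called in at least 1 of 13 fits (rows), by fit (columns); grey shows -log10 of the adjusted p, from 0 to 4 or more, and red dots mark values under 0.05. Ankrd1 is called in every column and Amotl2 in all but that without soft replicate 2, and the column without soft replicate 1 and the authors' deposited comparison hold the most dots.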

How the data were processed

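The members and all gene lists were chosen with earlier results of these data known. The authors deposited 1 value per gene and library that their header calls expression, which was taken here as FPKM (read counts scaled by transcript length and library size) from the values themselves. Per the submitters' processing notes, the authors used TopHat2 2.1.1, DESeq2 and the build mm10. A counter and an annotation are not given in the sources used here. As deposited, the base mean was treated as a signal that averages the authors' normalized reads over the 6 libraries. The authors' log2 fold change with its SE, their linear fold (ratio), test statistic (score), p-value and q-value compare stiff with soft gels, per the file headers.

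Genes with a mean of at least 1 FPKM in either group (11780) were fitted as log2(FPKM + 1) with limma 3.58.1 in R 4.3.3 (eBayes with trend, no block, 6 libraries). The same fit was also run on simulated counts, in which the changes set were larger than those of most called members. Reads were rebuilt from FPKM and base mean; 100% of 90096 values were whole within 0.05 reads. They served for depth and for limma-voom. All 38 members passed the filter. Full values are given for members called by limma or in the authors' table and for the effectors, LATS kinases, Ccn1 and Ccn2, and the other pathway genes are named where called (up to 4 per list and direction). Pathway genes outside this rule that are given with values or by name (Fat4, Map4k4, Runx2, Vgll3, Smad3, Wwc1, Nuak2 and the like) were picked after their values were seen. Coordinates are from GENCODE vM21 (mm10), promoters from RefSeq GRCm38.p6. Alternatives were a pseudocount of 0.1, no filter, median-ratio scaling, limma-voom, a replicate block, each library left out and the authors' comparison. Lists are described by counts and medians, with no test of the list.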

Additional observations from a re-analysis of the deposited data

How the results depend on the processing

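Members called lower (5 with all libraries) were 3 without the filter, 7 by limma-voom and 11 in the authors' deposited table, and 1 to 13 when 1 library was left out. Members called higher (0) were 1 by limma-voom and 1 in the authors' table, the same for upstream members, and 0 to 1 for both when 1 library was left out. Upstream members called lower (3) were 1 without the filter, 1 with the replicate block and 0 to 4 with 1 library left out. Targets called lower (1) were 3 by limma-voom, 3 with the replicate block, 6 in the authors' table and 1 to 6 with 1 library left out. Coactivators and TEAD factors called lower (1) were 0 with the replicate block and 0 to 3 with 1 library left out. Of all tested genes, 632 were lower in the authors' table against 316, and with 1 library left out 50 to 859 were higher and 15 to 756 lower. For members and for all genes, the highest counts were without soft replicate 1 and the lowest without soft replicate 2; the cause was not tested.

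Sign changes arose in 9 members whose log2 fold changes lay between -0.08 and 0.07, none of them called with all libraries. With median-ratio scaling, which moved the median of all genes from 0.03 to 0.000686, Ajuba was at -0.0162, Axl at -0.0206 and F3 at -0.0166. In the authors' deposited table Ajuba was at -0.0250, Tead2 at -0.000349, Axl at -0.0179 and F3 at -0.0154. With 1 library left out the log2 fold change ran from -0.0808 to 0.0143 for Lats1, from -0.161 to 0.0183 for Mob1b, from -0.0188 to 0.190 for Wwc1, from -0.0745 to 0.0246 for Amot and from -0.0507 to 0.1201 for Ajuba. It ran from -0.0184 to 0.107 for Tead2, from -0.0712 to 0.0883 for Axl, from -0.0195 to 0.0433 for F3 and from -0.0522 to 0.0243 for Asap1.

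The replicate numbers did not pair the samples: deviations of same-numbered libraries correlated at 0.00873, 0.219 and -0.211. Soft replicate 2 correlated best with its own number, and soft replicates 1 and 3 with another. With the replicate block 4 members were called lower (Ankrd1, Amotl2, and newly Ccn2 at adjusted p = 0.0206 and Rbms3 at 0.0321 by limma), and Tead1 (0.076), Wwc2 (0.0584) and Ptpn14 (0.0534) were not. Depth limits Ankrd1, Tead4 and Nuak2 most, with as few as 20, 86 and 74 reads in a library.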
